A study of Mus musculus with 8 samples.

Results

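The genes described here are the 9 that make, sense and clear extracellular adenosine: the ectonucleotidase genes Nt5e, Entpd1 and Entpd2, the clearing enzymes Ada and Adk, the receptors Adora1, Adora2a and Adora2b, and the transporter Slc29a1. They were chosen by name, as genes of this pathway, and all 9 were found among the 21826 genes that remained in the expression tables after small RNAs were removed. Cd73, the product of Nt5e, is also the surface protein by which the study divided postnatal mouse retina into rod photoreceptor-lineage cells and other cells.

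RNAseq was performed on 8 libraries from mice of the outbred slc:ICR strain, and the labels name no transgene or drug for any group. Whole retina was taken at embryonic days 15 and 18 (E15 and E18). At postnatal days 2, 5 and 8 (P2, P5 and P8), dissociated retinas were stained with an antibody to Cd73 and sorted into a Cd73 positive fraction (Cd73PC) and a Cd73 negative fraction (Cd73NC), and the retinas of a stage were pooled before the sort. Each of the 8 groups is 1 library, so that no difference has a replicate check and no test was run. Every comparison below is a description of these libraries.

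Extracellular ATP is cut stepwise at the cell surface. Entpd1 (CD39) and Entpd2 are ectoenzymes that remove phosphates from nucleotides such as ATP, and Cd73 removes the last phosphate from AMP to leave adenosine. Adenosine acts on G protein-coupled receptors, of which Adora1 couples to Gi and lowers cyclic AMP, whereas Adora2a and Adora2b couple to Gs and raise it. The equilibrative transporter Slc29a1 (ENT1) carries adenosine across the plasma membrane, where adenosine kinase (Adk) turns it back into AMP and adenosine deaminase (Ada) turns it into inosine. In the retina, adenosine is known as a modulator of neuronal transmission and of photoreceptors, and Cd73 is known as a surface marker of rods and their postmitotic precursors.

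Levels are given in FPKM, a count of fragments scaled to the length of the transcript and to the size of the library, so that levels can be compared between genes. The confidence bounds that Cufflinks deposited with each value cover a single library and not the spread between animals. Ratios between libraries are log2 ratios of FPKM + 1, which understate the difference of genes under a few FPKM, and a gene is called higher or lower when it passes 1.5-fold on that scale. For 6 members (Nt5e, Entpd1, Entpd2, Ada, Adora2a and Adora2b), the values were exact multiples of what 1 read is worth, and the fewest reads that give them are quoted. Intervals on ratios of reads are 95% exact binomial intervals, which cover counting error only, as reads amplified by PCR are not independent molecules. Relative to the E18 library, sequencing depth ran from 0.965 at E15 to 1.62 in P2 Cd73PC. The labels were checked against marker genes. Markers of other cells are given beside the results they touch. Of 4 retinal pigment epithelium markers, 2 (Tyr and Pmel) were also called higher in Cd73PC at P2, where Pmel was at 37.4 FPKM against 0.325 FPKM in Cd73NC, and the part of such cells in the results was not tested. All 5 rod markers examined (Nrl, Nr2e3, Gnat1, Pde6b and Sag) were higher in Cd73PC at every stage, and all 5 progenitor markers (Mki67, Top2a, Ccnd1, Hes1 and Fgf15) were lower. In bulk RNA, fewer cells of a type and less RNA per cell cannot be told apart.

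Of the 9 members, 6 reached 1 FPKM in at least 1 library, and only Adk and Slc29a1 reached it in all 8. Entpd1, Adora2a and Adora2b stayed under 1 FPKM in every library. The members therefore fall into a group of abundant transcripts (Nt5e and Entpd2 in particular fractions, Adk and Slc29a1 throughout) and a group of transcripts under 3 FPKM in every library (Entpd1, Ada and the receptors). The plot of FPKM by library shows both groups.

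**Figure D1:**
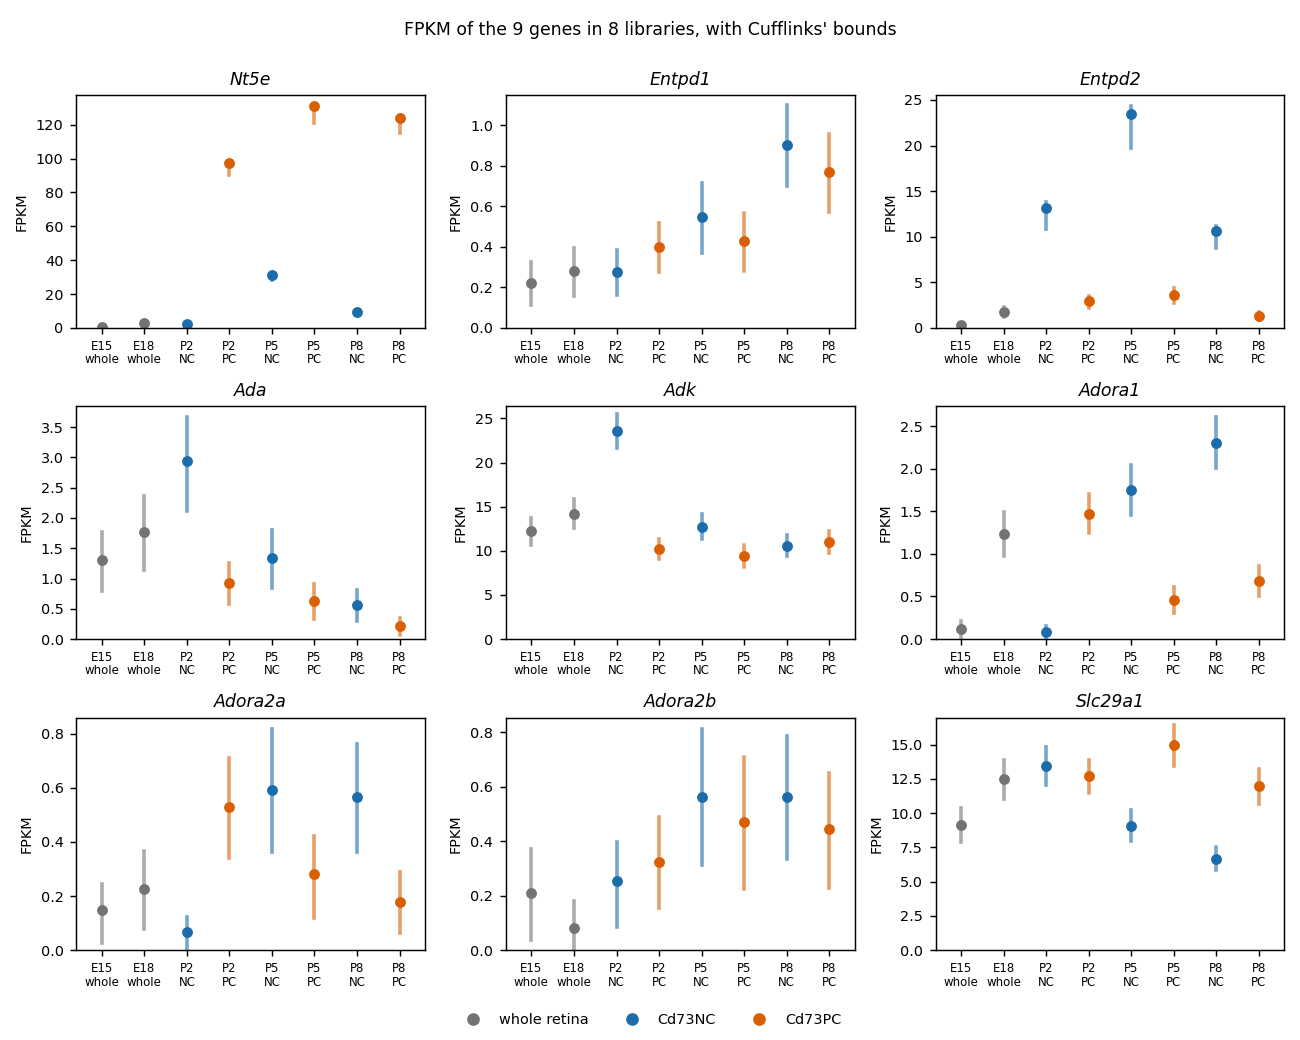
FPKM of the 9 genes (y axis, linear, a separate scale for each gene) in the 8 libraries (x axis); grey is whole retina, blue Cd73NC and orange Cd73PC, and vertical lines are Cufflinks' bounds for that library. Nt5e is high in the 3 Cd73PC libraries, Entpd2 in the 3 Cd73NC libraries, and Adora1 and Adora2a are higher in Cd73PC at P2 but lower at P5 and P8.

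Nt5e and Entpd2 lay at opposite ends of the comparison between fractions, and the 250 bases upstream of their annotated starts are shown because these are the promoters of the sorted gene and of the upstream ectonucleotidase with the reverse pattern. In build NCBI37/mm9, Nt5e lies on chromosome 9 (88222447 to 88266927) and Entpd2 on chromosome 2 (25251394 to 25256843). The windows are chr9:88222197-88222446 and chr2:25251144-25251393, both on the plus strand, and both end 1 base before the gene start in the tables. The sequences come from RefSeq promoters (build GRCm38.p6), and each matched NCBI37/mm9 exactly at 1 place. They are written 5′ to 3′ with the GC box GGGCGG, or its complement on the other strand, in capitals.
Nt5e: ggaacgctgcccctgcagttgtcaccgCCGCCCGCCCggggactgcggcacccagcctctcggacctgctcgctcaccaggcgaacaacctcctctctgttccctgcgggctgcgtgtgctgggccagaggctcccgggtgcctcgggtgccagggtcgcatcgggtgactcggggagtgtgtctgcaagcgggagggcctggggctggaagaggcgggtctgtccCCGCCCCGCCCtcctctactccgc
Entpd2: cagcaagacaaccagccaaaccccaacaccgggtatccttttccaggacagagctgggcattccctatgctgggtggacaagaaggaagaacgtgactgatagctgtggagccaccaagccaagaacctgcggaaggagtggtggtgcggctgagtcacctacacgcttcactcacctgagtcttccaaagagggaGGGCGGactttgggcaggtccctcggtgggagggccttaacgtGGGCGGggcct

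The Nt5e window held 4 GC boxes, some of which overlap, and 72% G and C, and the Entpd2 window held 2 GC boxes and 59.2% G and C. The median over 32851 RefSeq promoter windows of the same length was 52.4%. GC boxes were in 32.7% of those windows. Neither window held TAATCC, the core that Crx and Otx2 bind (6.25% of windows), TGCTGA, a core of Nrl sites (16.1% of windows), or TATAAA, the TATA box (12.4% of windows), on either strand. Promoters were matched for 8 members with 18 start sites, all members but Adora2a. Among the 18 windows, TAATCC was found at 1 and TGCTGA at another, both starts of Slc29a1. A match or its absence describes only the letters in these windows.

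The ectonucleotidases come first in the pathway. Nt5e was at 0.447 FPKM at E15 (22 reads) and 2.76 FPKM at E18 (141 reads). In Cd73NC it was at 2.43, 31.4 and 9.38 FPKM at P2, P5 and P8 (157, 1842 and 722 reads). In Cd73PC it was at 97.3, 131 and 124 FPKM (8016, 7448 and 8039 reads). The 3 Cd73PC values are the highest and lie far above every other library. Because the sort used the Nt5e protein, this order checks the gate and is not a finding about the cells. These 3 values also lie above the upper bound that the tables give for them, the only 3 of 72 member values outside their bounds.

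The level of Nt5e RNA in Cd73NC was set beside that of rod markers, and which cells it comes from was not tested. Nt5e in Cd73NC stood at 2.50% of its Cd73PC level for P2, 24.0% for P5 and 7.55% for P8. The same percentage over the 5 rod markers had a median of 1.36 for P2 (range 0.430 to 4.74). The median was 9.19 for P5 (range 7.34 to 21.1) and 7.33 for P8 (range 5.13 to 7.87). Nt5e lay within the rod markers' range at P2 and P8, and at P5 it lay above all 5, the nearest being Nrl, a transcription factor of rods, at 21.1%. Gnat1, which encodes the rod transducin alpha subunit, was at 7.34% at P5. In whole retina, before any sort, Nt5e was 6.19-fold higher at E18 than at E15 on the ratio of reads (95% interval 3.93 to 10.2). The rod markers differed over that step. Nr2e3, a rod nuclear receptor gene, went from 0.0763 to 28.9 FPKM and Nrl from 3.19 to 36.9 FPKM. Sag went from 1.58 to 10.1 FPKM and Pde6b from 0.0525 to 1.67 FPKM, whereas Gnat1 was at 1.57 and 1.52 FPKM.

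Nt5e levels differed little among the Cd73PC libraries. From P2 to P5 the Cd73PC level changed by 0.42 on the log2 scale and from P5 to P8 by -0.07, neither past 1.5-fold. The gate selects for the product of Nt5e, which bears on these levels. Over the same stages the rod markers differed in course in Cd73PC. Nrl was at 984, 1317 and 1417 FPKM and Nr2e3 at 950, 1433 and 1140 FPKM. Gnat1 went from 13.7 to 77.1 to 380 FPKM, Pde6b from 107 to 359 to 640 FPKM and Sag from 944 to 2642 to 4174 FPKM.

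The 10 genes with the highest Pearson correlation to Nt5e on log2(FPKM + 1), over the 8 libraries and among 13410 genes that reached 1 FPKM somewhere, were Agpat3, Tmem86a, Ano2, Acsl1, Trak2, Adck3, Mak, Tmem92-ps, Slc25a33 and Elovl2 (r from 0.995 to 0.990). Agpat3, Acsl1 and Elovl2 encode enzymes of phospholipid or fatty acid synthesis, Ano2 encodes a calcium-activated chloride channel and Mak a kinase of the photoreceptor cilium. Agpat3 was the most abundant of them, at 22.4 FPKM at E15 and 208, 273 and 271 FPKM in Cd73PC at P2, P5 and P8. It was at 41.2, 152 and 66.0 FPKM in Cd73NC, so that it shared with Nt5e a Cd73NC level that was highest at P5. Ano2 was at 0.258 FPKM at E15, 2.63 FPKM at E18 and 47.9, 83.0 and 88.1 FPKM in Cd73PC. When a library was left out, from 4 to 9 of these 10 genes stayed among the top 10. The 8 points share the sort by which the fractions were made, and the correlation is given as a description only.

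**Figure D2:**
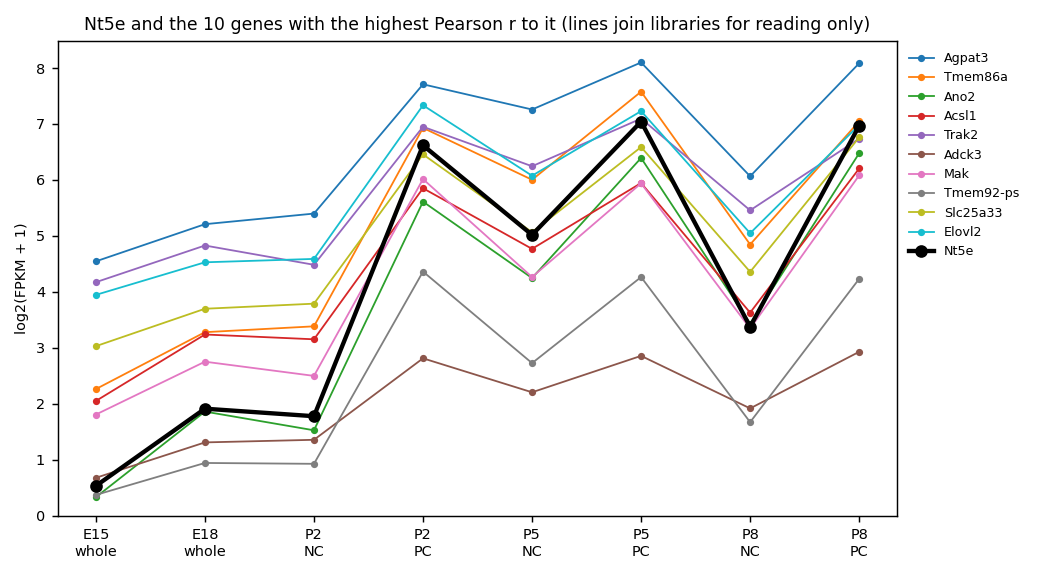
log2(FPKM + 1) (y axis) of Nt5e (black) and of the 10 genes with the highest Pearson r to it (colours) in the 8 libraries (x axis). All lines are high in the 3 Cd73PC libraries, and within Cd73NC all are highest at P5.

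Entpd2 had the reverse distribution. It was at 0.356 FPKM at E15 (9 reads) and 1.79 FPKM at E18 (47 reads). In Cd73NC it reached 13.1, 23.5 and 10.6 FPKM at P2, P5 and P8 (436, 707 and 419 reads), against 2.91, 3.62 and 1.32 FPKM in Cd73PC (123, 106 and 44 reads). Its level in Cd73NC exceeded that in Cd73PC 4.52-fold at P2, 6.48-fold at P5 and 8.01-fold at P8, and the bounds of the fractions did not meet at any stage. On log2(FPKM + 1) the ratios of Cd73PC over Cd73NC were -1.86, -2.40 and -2.32. It was the only member called lower in Cd73PC at all 3 stages, as were 7.82% of all genes. At P8 it was the most abundant of the 9 members in Cd73NC, although its bounds overlapped those of Adk there.

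The markers of Müller glia (Rlbp1, Glul, Slc1a3, Apoe and Dkk3), the principal glia of the retina, had the same direction, except for Apoe at P2. At P2 Apoe was at 162 FPKM in Cd73PC and 110 FPKM in Cd73NC. Of these 5 genes, 4 were called lower in Cd73PC on P2 and all 5 on both later days, with summed FPKM in Cd73PC at 0.439, 0.266 and 0.261 times that in Cd73NC. At E15 the courses differed. The Müller markers summed to 624 FPKM there and 1510 FPKM in P5 Cd73NC, and Entpd2 was at 0.356 and 23.5 FPKM. The 5 progenitor markers were also lower in Cd73PC at every stage, with summed FPKM at 0.248, 0.299 and 0.193 times that in Cd73NC. The part of these cells in the Entpd2 result was not tested. The genes whose course over the 8 libraries was most like that of Entpd2 were Omg, which encodes a myelin-associated glycoprotein, Bcas1 and Arhgef3, with r from 0.982 to 0.977. Omg was listed at 0 at E15 and was at 14.2, 29.3 and 19.7 FPKM in Cd73NC against 3.28, 3.14 and 2.01 FPKM in Cd73PC.

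Entpd1 was low in both fractions. It was at 0.223 and 0.282 FPKM in whole retina, at 0.275, 0.548 and 0.901 FPKM in Cd73NC and at 0.400, 0.431 and 0.771 FPKM in Cd73PC, from 13 to 82 reads a library. The bounds of the fractions overlapped at every stage. The ratio of reads per depth, Cd73PC over Cd73NC, was 1.46 at P2 (95% interval 0.836 to 2.61), 0.786 at P5 (0.467 to 1.31) and 0.856 at P8 (0.602 to 1.21). A difference between fractions of up to the ends of these intervals could not be seen at this depth. From P5 to P8 the ratio of reads was 1.79 in Cd73PC (1.13 to 2.90) and 1.64 in Cd73NC (1.11 to 2.48), but neither step passed 1.5-fold on FPKM + 1, and the Cd73NC bounds overlapped.

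Entpd1 is known as a surface enzyme of microglia, the resident macrophages of the retina. The 6 microglia markers (Aif1, Cx3cr1, Csf1r, C1qa, C1qb and Ptprc) summed to 10.7 FPKM at E15, 10.8 FPKM at E18, 6.14, 43.5 and 129 FPKM in Cd73NC and 35.6, 28.9 and 99.0 FPKM in Cd73PC. They were highest in the P8 libraries, as was Entpd1, but the courses differed elsewhere. At P2 the marker sum in Cd73PC was 5.80 times that in Cd73NC, where the Entpd1 ratio of reads was 1.46 (0.836 to 2.61). At E15 the marker sum was at 8.29% of its highest library and Entpd1 at 24.8%. Their part in the levels of Entpd1 was not tested. The 3 genes with the course most like that of Entpd1 were Atrn, Ccl6 and Itgam (r from 0.988 to 0.986), of which Itgam encodes a myeloid integrin subunit. Entpd1 did not reach the 1 FPKM asked of the other members for this comparison, and these names were chosen after its values were seen.

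The ratio of the ectonucleotidases therefore differed between the fractions at each stage. Nt5e exceeded Entpd2 33.5-fold, 36.1-fold and 93.8-fold in Cd73PC at P2, P5 and P8, on the ratio of FPKM. In Cd73NC, Entpd2 was 5.41 times Nt5e at P2, 0.747 times at P5 and 1.13 times at P8. Entpd2 exceeded Entpd1 47.8-fold in P2 Cd73NC and only 1.72-fold in P8 Cd73PC. The sort used the product of Nt5e, which bears on the Nt5e side of these ratios.

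**Figure D3:**
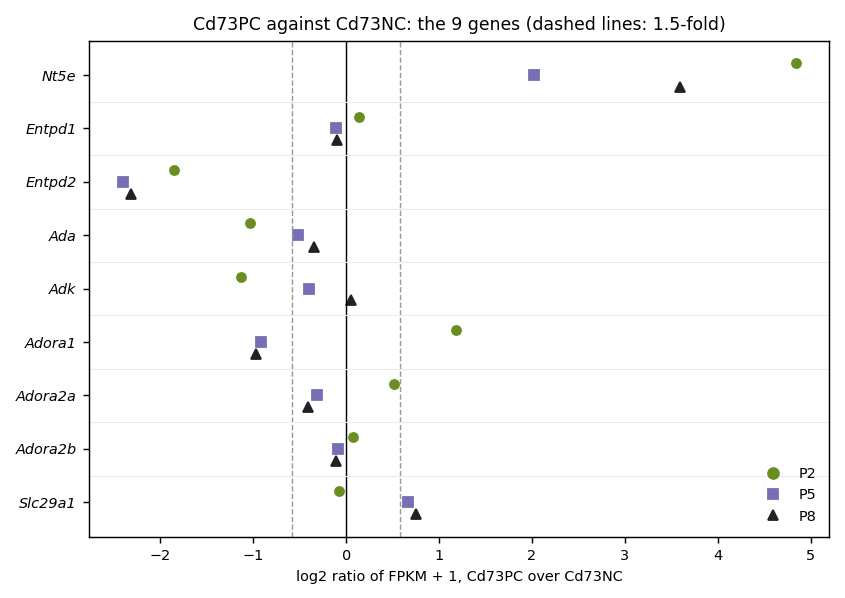
log2 ratio of FPKM + 1, Cd73PC over Cd73NC (x axis), of the 9 genes (y axis) at P2 (circles), P5 (squares) and P8 (triangles); dashed lines mark 1.5-fold in either direction. Nt5e, the sorted gene, lies to the right and Entpd2 to the left at every stage, whereas Adora1 and Adora2a change side between P2 and P5.

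At P2, 2 members were called higher in Cd73PC (Nt5e and Adora1) and 3 lower (Entpd2, Ada and Adk), where 8.56% of all genes were called higher and 14.4% lower. Among genes that reached 1 FPKM in either library of the pair, the shares were 14.5% and 25.0%. At P5, 2 were higher (Nt5e and Slc29a1) and 2 lower (Entpd2 and Adora1), beside 7.02% and 15.5% of all genes and 12.3% and 27.0% of genes that reached 1 FPKM. At P8 Nt5e and Slc29a1 were called higher and Entpd2 and Adora1 lower, as at P5, beside 7.54% and 18.6% of all genes and 13% and 31.3% of genes that reached 1 FPKM. After quantile normalization Adora1 was no longer called at P8, with a log2 ratio of -0.50. The median log2 ratio of the 9 members was 0.08, -0.32 and -0.11 at P2, P5 and P8, and that of all genes was 0, 0 and -0.02. With Nt5e set by the sort and so few genes, these counts are not a result about the pathway as a whole.

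The clearing enzymes differed in level and in course. Adk was at 12.2 and 14.2 FPKM in whole retina, at 23.5, 12.7 and 10.6 FPKM in Cd73NC and at 10.2, 9.39 and 11.0 FPKM in Cd73PC. It was abundant everywhere and stood apart only in P2 Cd73NC, whose bounds (21.6 to 25.5 FPKM) met those of no other library. The log2 ratio of Cd73PC over Cd73NC was -1.14 at P2, then -0.40 and 0.05 on the later days, and at P8 the bounds of the fractions overlapped.

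Ada was lower than Adk, and lower at each later stage in both fractions. It was at 1.30 and 1.77 FPKM in whole retina, at 2.94, 1.34 and 0.555 FPKM in Cd73NC (80, 33 and 18 reads) and at 0.921, 0.625 and 0.220 FPKM in Cd73PC (32, 15 and 6 reads). P2 Cd73NC was again the highest library, as for Adk, and P8 Cd73PC the lowest. In Cd73PC the ratio of reads was 0.678 for P5 over P2 (0.341 to 1.29), an interval that includes no change. For P8 over P5 it was 0.352 (0.112 to 0.960). Cufflinks' bounds overlapped at both of these steps and neither was called. The ratio of reads, Cd73PC over Cd73NC, was 0.314 at P2 (95% interval 0.201 to 0.478), 0.468 at P5 (0.236 to 0.886) and 0.396 at P8 (0.129 to 1.04). On log2(FPKM + 1) the ratios were -1.03, -0.52 and -0.35, so that only P2 was called, although the ratio of reads at P8 was close to that at the other stages.

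Within a library, Adk exceeded Ada on the FPKM scale everywhere, by 8.02-fold to 9.54-fold in whole retina and in Cd73NC at P2 and P5, and by 19.0-fold in P8 Cd73NC. In Cd73PC the excess was 11.0-fold at P2, 15.0-fold at P5 and 49.8-fold at P8. The last rests on 6 reads of Ada. Both genes were highest in P2 Cd73NC. Of the postnatal libraries this one also had the most Mki67, a gene of dividing cells, at 40.4 FPKM against 10.5 FPKM in P2 Cd73PC. In whole retina, where Ada and Adk were lower, the progenitor markers differed. Mki67 (56.4 and 60.9 FPKM), Hes1 and Fgf15 were higher there than in P2 Cd73NC. Ccnd1 was lower at E15 and E18 (839 and 1084 FPKM) than in P2 Cd73NC (1095 FPKM). Top2a in P2 Cd73NC (128 FPKM) lay between E15 and E18 (124 and 141 FPKM). The part of progenitor cells in these levels was not tested. The 3 genes most like Ada over the libraries were Ptar1, Sept10 and Tysnd1 (r from 0.989 to 0.985), and those most like Adk were 4933417G07Rik, Timm23 and Dhodh (r from 0.973 to 0.958). Timm23 encodes a subunit of the mitochondrial import channel and Dhodh the mitochondrial enzyme of pyrimidine synthesis.

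The receptors were all low, with a sum over the 3 genes of 0.406 to 3.43 FPKM in the 8 libraries. Adora1 was at 0.115 FPKM at E15 and 1.24 FPKM at E18. In Cd73NC it was at 0.0843, 1.75 and 2.31 FPKM at P2, P5 and P8, and in Cd73PC at 1.47, 0.460 and 0.686 FPKM. E15 and P2 Cd73NC were thus the low libraries, and E18, P2 Cd73PC and the later Cd73NC libraries the high ones. The log2 ratio of Cd73PC over Cd73NC was 1.19 at P2 but -0.91 and -0.97 on the later days, and the bounds of the fractions did not overlap at any stage. At P2 the bounds ran from 1.25 to 1.70 FPKM in Cd73PC and from 0.0187 to 0.153 FPKM in Cd73NC. At P8 they ran from 0.510 to 0.862 FPKM and from 2.01 to 2.60 FPKM.

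Adora2a changed side at the same stage. It was at 0.147 and 0.227 FPKM in whole retina (5 and 8 reads), at 0.0672, 0.593 and 0.565 FPKM in Cd73NC (3, 24 and 30 reads) and at 0.527, 0.280 and 0.179 FPKM in Cd73PC (30, 11 and 8 reads). The ratio of reads, Cd73PC over Cd73NC, was 7.84 at P2 (95% interval 2.44 to 40.2), 0.472 at P5 (0.209 to 1.001) and 0.317 at P8 (0.126 to 0.708). On log2(FPKM + 1) the ratios were 0.52, -0.32 and -0.41, none past 1.5-fold. Of the pairs among the 9 members, Adora1 and Adora2a had the highest Pearson r over the 8 libraries, 0.892, and Ada and Adk came next with 0.865.

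Astrocyte markers changed side at the same stage. Gfap (the intermediate filament of astrocytes), Pax2 and Pdgfra (a receptor of the astrocyte lineage) summed to 3.08 FPKM at E15 and 6.41 FPKM at E18. They summed to 2.50, 28.1 and 19.3 FPKM in Cd73NC and to 21.6, 7.24 and 7.05 FPKM in Cd73PC. At E18 the course differed, since the astrocyte sum was at 22.8% of its highest library and Adora1 at 53.5%. All 3 were called higher in Cd73PC at P2, and all 3 lower on both later days. Of the 6 microglia markers, 5 were also called higher in the P2 Cd73PC library. The part of these cells in the levels of Adora1 and Adora2a was not tested.

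The 3 genes most like Adora1 over the libraries were Mt3, Ucp2 and Gfap (r from 0.925 to 0.914). Among those most like Adora2a, named after its values were seen because it stayed under 1 FPKM, were S100b and Bcan (r of 0.976 and 0.954), genes known from glia. S100b was at 0.0358, 4.54 and 3.70 FPKM in Cd73NC and at 3.76, 1.63 and 1.04 FPKM in Cd73PC, an order of the libraries close to that of Adora2a. All 5 rod markers were higher in Cd73PC at each stage, but the sort gathers rods in that fraction, so that they give no contrast to the receptors.

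**Figure D4:**
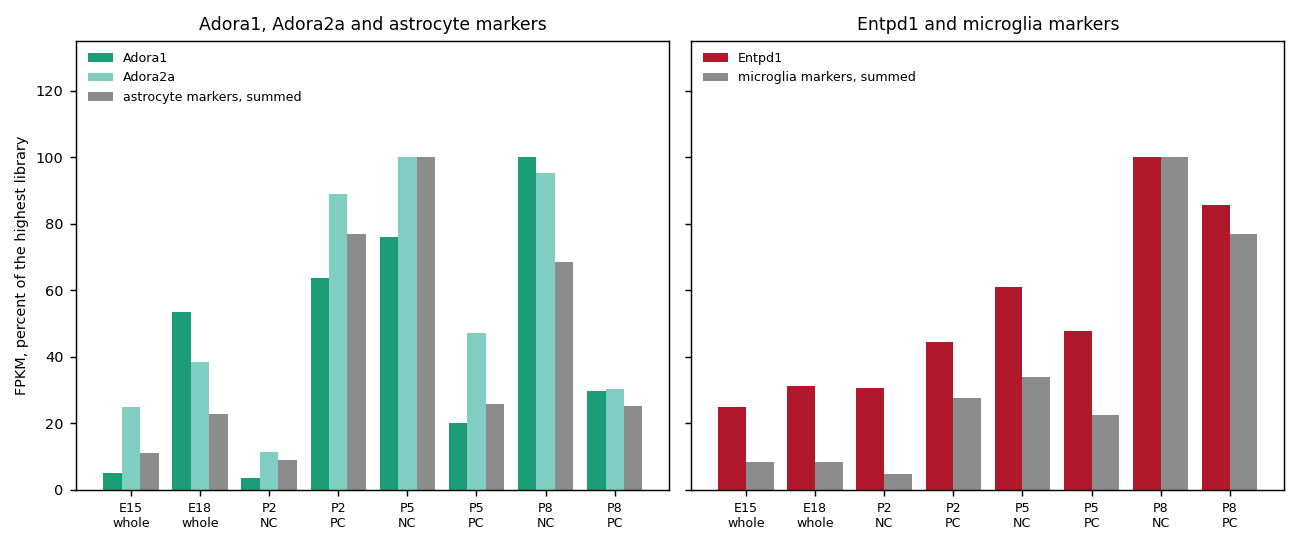
FPKM as a percent of the highest library (y axis) in the 8 libraries (x axis): left, Adora1, Adora2a and the sum of 3 astrocyte markers; right, Entpd1 and the sum of 6 microglia markers. On the left all bars are low in P2 Cd73NC and high in P2 Cd73PC, and at P5 and P8 the Cd73NC bars are the higher ones; on the right all bars are highest in P8 Cd73NC.

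Adora2b, the low-affinity receptor, was at 0.209 and 0.0807 FPKM in whole retina (5 and 2 reads), at 0.255, 0.561 and 0.561 FPKM in Cd73NC (8, 16 and 21 reads) and at 0.325, 0.470 and 0.445 FPKM in Cd73PC (13, 13 and 14 reads). The bounds of the fractions overlapped at every stage. The ratio of reads, Cd73PC over Cd73NC, was 1.27 at P2 (0.490 to 3.55), 0.836 at P5 (0.370 to 1.85) and 0.793 at P8 (0.373 to 1.63), so that differences within these 95% intervals were not detectable. Adora3, the fourth adenosine receptor gene and not among the 9 members, was likewise low, from listed at 0 at E18 to 0.690 FPKM in P8 Cd73NC and 0.565 FPKM in P8 Cd73PC. Rnf145, Abca1 and Ptgds were the genes most like Adora2b (r from 0.971 to 0.950), again named after its values were seen.

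Slc29a1 was the only member besides the sorted gene to be called higher in Cd73PC at P5 and P8. It was at 9.15 and 12.5 FPKM in whole retina, at 13.4, 9.07 and 6.67 FPKM in Cd73NC and at 12.7, 14.9 and 11.96 FPKM in Cd73PC. The fractions had overlapping bounds at P2. At P5 the bounds ran from 13.4 to 16.4 FPKM in Cd73PC and from 7.96 to 10.2 FPKM in Cd73NC, and at P8 from 10.7 to 13.2 FPKM and from 5.82 to 7.53 FPKM. The log2 ratios were -0.07, 0.66 and 0.76. The Cd73PC level thus stayed within 11.96 to 14.9 FPKM while the Cd73NC level was lower at each later stage. From P2 to P5 the log2 change was 0.22 in Cd73PC and -0.52 in Cd73NC. From P5 to P8 it was -0.30 and -0.39, so that both fractions moved and the ratio changed little at that step. Oxnad1, Cnot10 and Tmem129 had the most similar course (r from 0.963 to 0.954).

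Along age, members were called at both steps in Cd73NC and in Cd73PC and between the embryonic libraries. From E15 to E18, 3 members (Nt5e, Entpd2 and Adora1) were called higher and 0 lower, beside 4.61% and 2.1% of all genes (7.6% and 3.47% of those at 1 FPKM or more in either library). From P2 to P5 in Cd73NC, Nt5e, Entpd2 and Adora1 were called higher and Ada and Adk lower, beside 7.93% and 9.51% of all genes (13.1% and 16.3% of those at 1 FPKM or more). From P5 to P8 in Cd73NC, 3 members (Nt5e, Entpd2 and Ada) were called lower and 0 higher, beside 7.78% and 8.47% of all genes (13.2% and 14.1%). Ada passed only narrowly, at 1.502-fold, and with upper quartile scaling 2 members were called. The sort used the product of Nt5e, which bears on both Nt5e calls in Cd73NC. The 5 rod markers summed to 49.9, 736 and 531 FPKM in Cd73NC at P2, P5 and P8, and their part in these calls was not tested.

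In Cd73PC, Adora1 was the 1 member called from P2 to P5, lower by a log2 ratio of -0.76, where 8.56% of all genes were called lower and 3.36% higher (15.2% and 5.92% of those at 1 FPKM or more). Entpd2 was the 1 member called from P5 to P8, lower by a log2 ratio of -0.99, where 4.78% of all genes were called lower and 3.31% higher (8.54% and 5.94%). Between E18 and P2 the cells taken changed together with the age, so that no ratio is given across that step.

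A wider list of 97 genes in 8 groups was also examined, which covers purine handling, ATP release, nucleotide receptors and cyclic AMP signalling. The cyclic AMP group holds 25 of these genes and 15 of those called lower at P8. At P2, 11 of them were called higher in Cd73PC and 20 lower, where 8.56% and 14.4% of all genes were. At P5 the counts were 8 and 20, beside 7.02% and 15.5% of all genes. At P8 they were 7 and 32, beside 7.54% and 18.6% of all genes and 31.3% called lower among genes that reached 1 FPKM. At all 3 stages, 4 were called higher (Pnp, Pnp2, Slc29a2 and Adcy6) and 12 lower, where 3.51% and 7.82% of all genes were. The values below are mean log2 ratios of Cd73PC over Cd73NC over the 3 stages unless they are given as FPKM.

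Besides Slc29a1, the list held 6 nucleoside transporters, of which 1 was called higher and 2 lower at every stage. Slc29a2 (ENT2), the closest relative of Slc29a1, had a mean log2 ratio of 1.24 and was at 6.46, 13.7 and 16.2 FPKM in Cd73PC against 2.62, 5.63 and 4.93 FPKM in Cd73NC. Its ratio to Slc29a1 on the FPKM scale was 0.510, 0.917 and 1.35 in Cd73PC at P2, P5 and P8, so that it passed Slc29a1 in P8 Cd73PC only. Slc29a3 (-1.10) and Slc29a4 (-1.58), the lysosomal ENT3 and the monoamine transporter PMAT, were lower in Cd73PC. Slc29a4 was at 2.30 FPKM in P8 Cd73PC and 13.7 FPKM in P8 Cd73NC.

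Among 11 genes of adenosine and purine salvage, Pnp and Pnp2, which encode purine nucleoside phosphorylases that act on the inosine made by Ada, had mean log2 ratios of 1.48 and 1.47. Pnp was at 82.0, 51.9 and 24.7 FPKM in Cd73PC against 16.0, 28.9 and 9.22 FPKM in Cd73NC. The Pnp genes are near-identical neighbours, and how reads were divided between them is uncertain. Aprt, which makes AMP from adenine, was lower in Cd73PC (-0.94). None of the 17 intracellular nucleotidases and AMP enzymes was called in the same direction at all 3 stages.

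Of 13 other genes listed for extracellular nucleotide breakdown, Enpp2 was the 1 gene called at all stages (-2.11). Enpp2 is best known as autotaxin, which makes lysophosphatidic acid rather than adenosine. It was at 14.5, 16.5 and 11.2 FPKM in Cd73NC and at 3.15, 2.58 and 1.80 FPKM in Cd73PC.

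Alpl, which encodes an ectophosphatase that can also make adenosine from AMP, was named after its values were seen. It was at 1.07 and 1.14 FPKM in whole retina, at 0.903, 1.87 and 3.96 FPKM in Cd73NC and at 1.29, 8.79 and 31.4 FPKM in Cd73PC. The P8 Cd73PC library was the highest by far. In Cd73PC, the ratio of Nt5e to Alpl on the FPKM scale was 75.2 on P2, 14.9 on P5 and 3.95 on P8. Nt5e itself differed little over those stages, and the fall of the ratio came from Alpl.

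**Figure D5:**
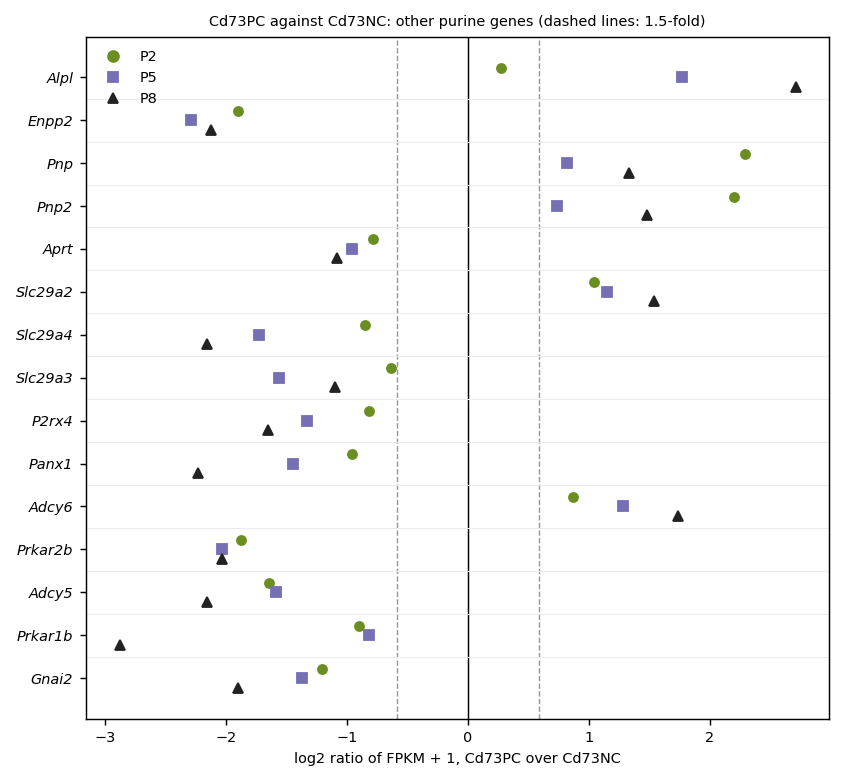
log2 ratio of FPKM + 1, Cd73PC over Cd73NC (x axis), at P2 (circles), P5 (squares) and P8 (triangles). The y axis holds Alpl and the 14 genes of the wider list named for passing 1.5-fold at all 3 stages. Dashed lines mark 1.5-fold. Pnp, Pnp2, Slc29a2 and Adcy6 lie to the right at every stage, and Alpl moves to the right with age.

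Upstream of Entpd2 and Entpd1, Panx1, a channel through which ATP leaves cells, was lower in Cd73PC (-1.54), at 11.9, 8.23 and 7.86 FPKM against 24.1, 24.2 and 40.5 FPKM in Cd73NC. It was the 1 of 9 ATP release genes called at all stages. P2rx4, an ATP-gated channel, was lower in Cd73PC (-1.27) and the 1 of 15 P2 nucleotide receptors so called. P2ry12, a receptor for ADP and a gene of microglia, was among those called higher at P2, at 6.04 FPKM in Cd73PC and 1.17 FPKM in Cd73NC, where microglia markers were higher as well. It was called lower in Cd73PC at P5 (3.47 against 6.45 FPKM) and not called at P8 (9.87 against 13.7 FPKM). Its value is given for that reason, after it was seen.

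Downstream of the receptors, 25 genes of cyclic AMP signalling were examined, and at P2, P5 and P8 respectively 3, 2 and 3 were called higher in Cd73PC and 8, 9 and 15 lower. Over all genes, 14.4%, 15.5% and 18.6% were called lower at these stages, and 25.0%, 27.0% and 31.3% of those that reached 1 FPKM. The shares called higher were 8.56%, 7.02% and 7.54% of all genes, and 14.5%, 12.3% and 13% of those that reached 1 FPKM. Adcy6, an adenylyl cyclase, was higher at all stages (1.29), at 13.6, 17.4 and 20.7 FPKM in Cd73PC against 7.04, 6.58 and 5.53 FPKM in Cd73NC. Adcy5, another adenylyl cyclase, was lower (-1.80), at 1.24, 0.952 and 1.10 FPKM against 6.02, 4.85 and 8.36 FPKM. The protein kinase A regulatory subunits Prkar2b (-1.98) and Prkar1b (-1.53) and Gnai2 (-1.49), an inhibitory G protein subunit of the kind to which Adora1 couples, were lower as well. Gnai2 was the most abundant of these, at 155, 98.7 and 41.7 FPKM in Cd73PC and 359, 258 and 158 FPKM in Cd73NC.

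Ordered by FPKM within a library, the members gave different orders in the fractions. In Cd73PC the order was Nt5e, then Slc29a1, Adk and Entpd2, with bounds that did not overlap between these neighbours except for Slc29a1 and Adk at P8. Below Entpd2, the neighbours among Ada, Entpd1 and the receptors had overlapping bounds in all 3 Cd73PC libraries. Genes further apart in that order could still be separated, as Adora1 lay clear of Adora2a, Entpd1 and Adora2b in P2 Cd73PC, and Entpd1 of Ada and Adora2a in P8 Cd73PC. In P8 Cd73NC the leading genes were Entpd2, Adk and Nt5e at 10.6, 10.6 and 9.38 FPKM, whose bounds overlapped, followed by Slc29a1 and Adora1. In E15 whole retina Adk and Slc29a1 led, Ada came next, and the 6 others had overlapping bounds from neighbour to neighbour.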

How the data were processed

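Poly(A) RNA libraries were sequenced as short single-end reads. Per the study's methods, the authors aligned reads to NCBI37/mm9 with TopHat2 2.0.8b, allowing multiple hits, and deposited Cufflinks 2.1.1 FPKM values per gene, with confidence bounds. The submitters' processing notes also name CASAVA 1.8.2 and bcl2fastq 1.8.4. Total read counts were not used here, so depth is relative. It was taken from the whole-read steps of low FPKM values.

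Each table holds 23021 rows. After 798 small-RNA rows were removed and rows of a gene summed, 21826 genes remained, of which 20 lacked a value in some library. Rows marked as failed by Cufflinks (4 to 10 a library) were treated as missing. Values lay outside their own bounds in 1428 to 2170 rows a library.

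Ratios are log2 of FPKM + 1, called past 1.5-fold. The study also used 1.5-fold, but states no added 1, which makes the threshold stricter here for low genes. No test was run, since each group is 1 library. Reads of 6 members were recovered as FPKM divided by the value of 1 read, all within 0.0249 of a whole number (tolerance 0.1). The members and lists were chosen with earlier results of these data known. Named genes are the 9 members, the genes most correlated with each (10 for Nt5e, 3 for others reaching 1 FPKM), listed genes past 1.5-fold in 1 direction at all stages (up to 4 a direction by mean log2 ratio in each group), relatives of the member receptors and transporter, and markers. Some genes that these rules name are not reported here. Alternatives were a pseudocount of 0.1, a 2-fold threshold, upper quartile and quantile scaling, bounds that do not overlap, a 1 FPKM filter, and Spearman correlation. Scripts were tested on simulated data and ran under Python 3.11.15 with pandas 2.3.3, numpy 2.4.6, matplotlib 3.10.9 and scipy 1.17.1.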

Additional observations from a re-analysis of the deposited data

Results flagged for a closer look

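Effects that pointed in opposite directions in different libraries were singled out, and with 1 library a group none of these differences was tested. For Adora1, the log2 ratio of Cd73PC over Cd73NC was higher at P2 than at P5 by 2.1 and higher than at P8 by 2.16. Seen along age, the log2 change of Adora1 from P2 to P5 in Cd73PC minus that in Cd73NC was -2.1, from the same 4 libraries. For Adora2a, the log2 ratio of Cd73PC over Cd73NC was higher at P2 than at P8 by 0.925. Astrocyte and microglia markers, which are set beside these receptors above, changed side between the same stages, and cone markers did from P2 to P5. The part of these cells was not tested.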

How the results depend on the processing

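The fractions of a stage came from the same retinas, so that each ratio within a stage is already a paired one. No fit with the stage as a block was run, since it would take the stages as replicates. Leaving out a library, chosen after seeing the data, was done for the genes most like Nt5e, of which 4 to 9 of 10 were shared (4 without E15 whole retina or P8 Cd73NC, 5 without P5 Cd73NC or P8 Cd73PC, and 6 without either P2 library). A ratio of 1 library to 1 library allows none to be left out. With a 2-fold threshold, the members past it numbered 2 in place of 4 at P5 and 2 in place of 4 at P8 between fractions, 0 in place of 1 at both steps in Cd73PC, and 2 in place of 5 from P2 to P5 in Cd73NC. With a pseudocount of 0.1, the members past 1.5-fold between fractions numbered 6 in place of 5 at P2, and 6 in place of 4 at both P5 and P8. Along age, Cd73PC had 2 from P2 to P5 and 3 for the step to P8, and Cd73NC had 8 from P2 to P5. Shares of all genes called at these settings are not given, so these counts are not a result about the members. The larger counts come from genes of low FPKM, whose ratios are less damped. Of the 10 genes most like Nt5e, 6 were shared with a pseudocount of 0.1 and 0 with Spearman correlation, under which 31 genes tie at 1 (the 10 have values from 0.905 to 0.976). Of 81 member ratios under other settings, 74 moved by less than 1.5-fold, 7 moved by more, all with a pseudocount of 0.1. None of the 13 ratios called past 1.5-fold changed sign, and 6 values of ratios not called did: Entpd1 and Adora2b at P5 and P8 with quantile normalization, and Slc29a1 at P2 with either scaling. With a pseudocount of 0.1 the log2 ratio of Adora1 was 3.09, -1.72 and -1.62 at P2, P5 and P8. Upper quartile scaling shifted the log2 ratios of Cd73PC over Cd73NC by 0.09 at P2, 0.12 at P5 and 0.10 at P8.

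With no replicates, nothing here separates a stage or fraction from the 1 library that stands for it. The values of Entpd1, Ada, Adora2a and Adora2b rest on 2 to 82 reads a library, and for Entpd1 and Adora2b differences between fractions within the intervals given could not be seen. Adk, Adora1 and Slc29a1 have more than 1 annotated start, so that their reads could not be recovered and only Cufflinks' bounds are given.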
